A study of Mus musculus with 18 samples.

Results

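Amino acid transporters are the membrane proteins through which T cells take up the amino acids they need to grow and divide. The 8 genes described here were Slc7a5, Slc3a2, Slc1a5, Slc7a1, Slc7a6, Slc38a1, Slc38a2 and Slc1a4. They were listed by name, with earlier results of these data known, and every probe that the platform annotation assigns to them was used. The annotation assigned 14 probes to 7 of the 8 genes, and Slc7a5 was not analysed here. All 14 probes passed the detection filter, out of 27474 probes that passed it, and the 7 genes stand among 14581 genes tested.

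Expression was measured on 18 Illumina bead arrays. The T cells came from female C57BL/6 mice of the genotype Foxp3-GFP-DTR-CD90.1, a line in which GFP marks the cells that express Foxp3. All mice had received 50000 B16F10 cells, a transplantable mouse melanoma line, under the skin, so that the spleens too came from tumour-bearing mice, and tissues were taken at a tumour diameter of about 10 mm. The 3 populations were regulatory T cells (Treg, CD4+CD25+Foxp3+), conventional CD4+ T cells (Tconv, CD4+Foxp3-) and CD8+ T cells, all gated free of CD11b, and each was taken from tumour and from spleen with 3 replicates, which gave 6 groups. Cells were pooled before sorting, and the sources used here give neither the age of the mice nor whether replicates came from separate mice, so that p-values measure the spread between these arrays.

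Slc7a5 and Slc3a2 encode the light and the heavy chain of LAT1, an exchanger that brings leucine and other large neutral amino acids into the cell, usually against glutamine. Glutamine itself enters through sodium-coupled carriers such as Slc1a5 (ASCT2), Slc38a1 (SNAT1) and Slc38a2 (SNAT2), while Slc7a1 (CAT-1) carries arginine and lysine. T cells raise this transport when their antigen receptor is engaged, and the amino acids that enter feed protein synthesis and the kinase complex mTORC1. When amino acids run short, the kinase Gcn2 and the transcription factor Atf4 raise a set of genes for amino acid synthesis and transport.

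The arrays were of even quality, with median signals of 79 to 88.1 and 38.0 to 45.2% of probes detected, and arrays of 1 group correlated across probes by 0.903 to 0.968. The 6 groups were hybridized once on each of 3 BeadChips, and a group kept its place on the BeadChip throughout, for which reason place and group cannot be told apart. The 7 T cell markers tested of 9 were each detected in all groups, with a summed signal of 5150 to 6940 units; Cd8a did not pass the detection filter, and Lck had no named probe. On 1 of its 4 probes Foxp3 lay between 8.24 and 9.32 on the log2 scale on the Treg arrays and between 4.07 and 4.41 on the others. The other 3 Foxp3 probes did not separate Treg, with 5.88 to 7.87, 4.79 to 5.95 and 4.10 to 4.51 over all arrays. Markers of other cells differed between the tissues: 20 listed macrophage and monocyte markers, 18 of them tested, summed to 949 to 2780 units on tumour arrays and 141 to 899 on spleen arrays. The 10 melanoma markers tested of 12 summed to 524 to 1330 units in tumour and 37.6 to 119 in spleen, and the 6 erythroid markers tested of 8 to 10.3 to 1350 in tumour and 2680 to 12200 in spleen. Their part in the results below was not tested. In such bulk samples, fewer cells that express a gene and less RNA per cell cannot be told apart.

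None of the 14 probes differed between groups past the test. Values are log2 intensities after background correction and quantile normalization, on a scale whose floor lies near 4, and differences were tested with limma over all 27474 probes at an adjusted p of 0.05. The 12 comparisons were tumour against spleen in each population, each pair of populations within each tissue, and the differences between populations in their tumour effect. Of the 168 tests of members, 0 passed, the smallest adjusted p was 0.114, and 15 (8.93%) had an unadjusted p under 0.05. Among all probes the share at that level ran from 5.59 to 13.3% by comparison. A p that misses the threshold does not show that values did not differ: the 95% intervals of the differences between groups extended by 0.23 to 0.83 to either side.

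For tumour against spleen, 0 of 14 member probes passed in Treg, where 2.11% of all probes did, 0 in Tconv, where 0.910% did, and 0 in CD8 cells, where 0.863% did. For Treg, Tconv and CD8 cells, the median difference of the members was 0.09, 0.02 and 0.31, against -0.01 over all probes each time. In Treg the 3 tumour arrays did not overlap the 3 spleen arrays for 4 of 14 member probes, against 19.2% of all probes. In Tconv this held for 5 of 14, against 14.0%, and in CD8 cells for 1 of 14, against 12.9%. Within the tumour 0 members passed for Treg against Tconv (2.25% of all probes), for CD8 against Tconv (0.379%) or for Treg against CD8 (3.38%). Within the spleen 0 passed for the same pairs, where 1.29, 0.644 and 2.16% of all probes did. In that order of pairs, 4, 1 and 2 of 14 member probes did not overlap in the tumour, against 17.1, 12.3 and 18.2% of all probes, and 3, 4 and 3 of 14 in the spleen, against 15.0, 12.4 and 16.8%. In the 3 tests of whether the tumour effect differed between populations 0 passed, against 0.120% of all probes for Treg and Tconv, 0.175% for Treg and CD8, and 0.0182% for CD8 and Tconv.

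**Figure D1:**
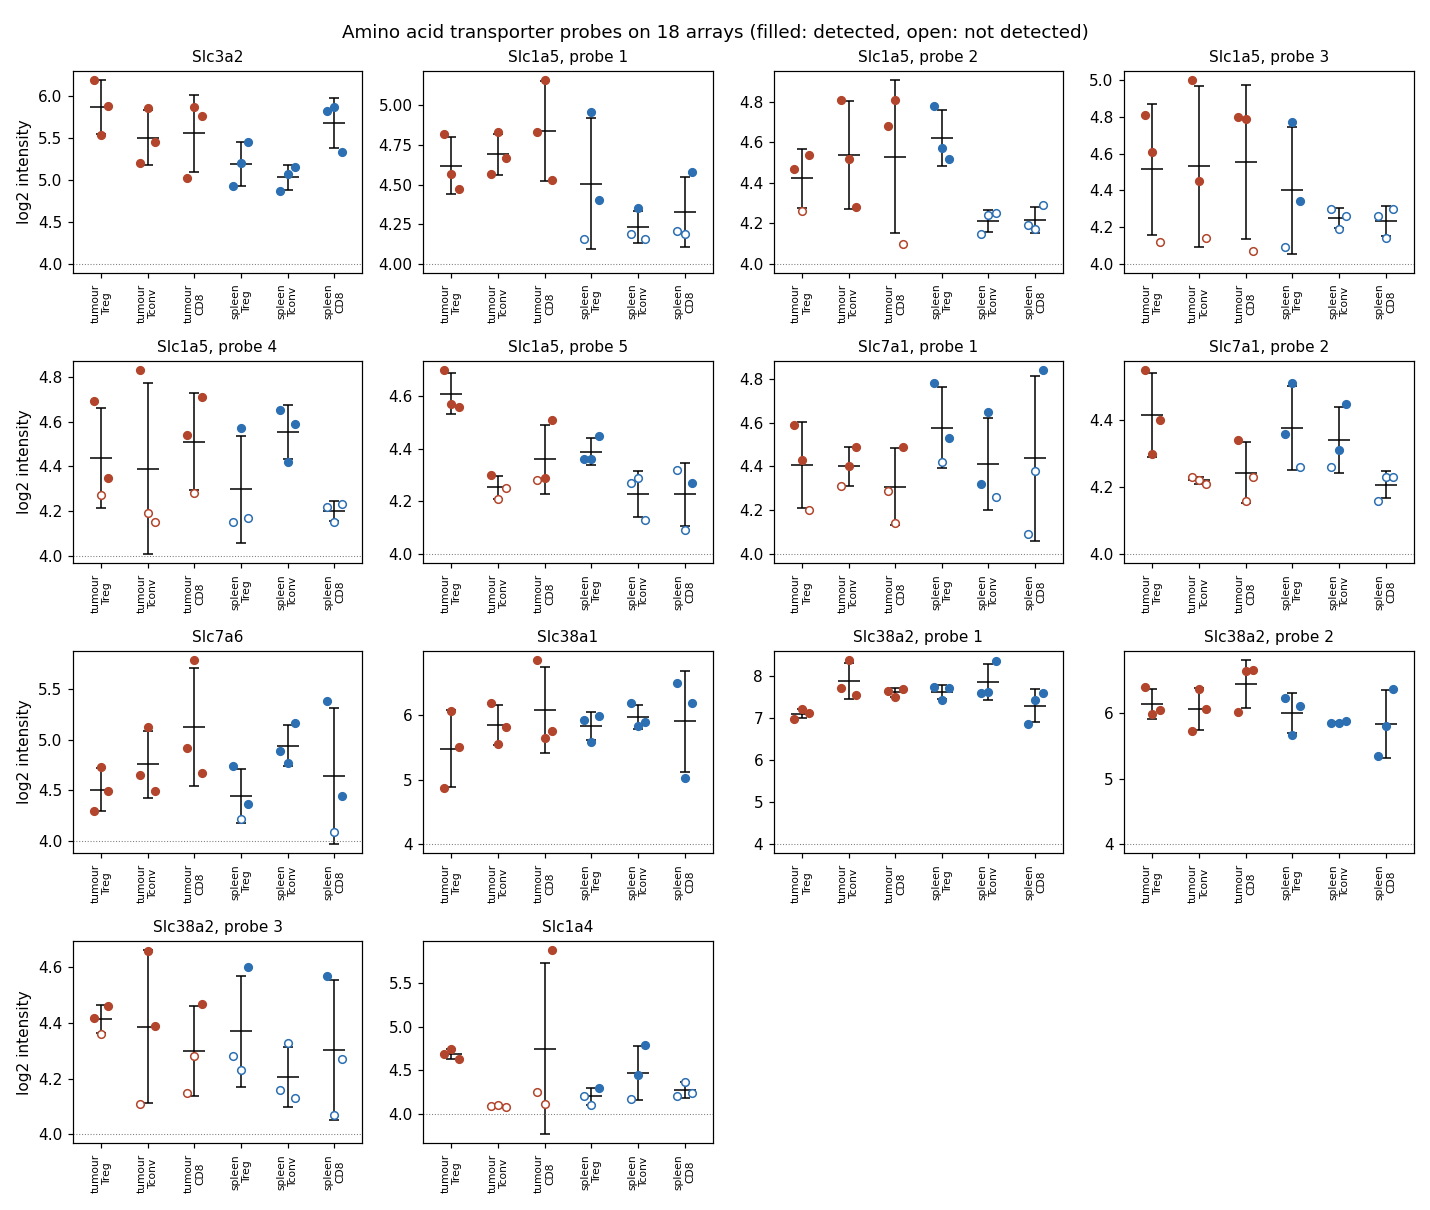
Log2 intensity of each member probe by group, with 1 point for each array (open where the probe was not detected), a bar at the mean of the 3 arrays, error bars of 1 SD and a dotted line at the floor of 4; probes of a gene are numbered from the highest to the lowest mean. Slc38a2 probe 1 lies between 6.86 and 8.38, while the probes of Slc1a5 and Slc7a1 lie near the floor in every group.

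The heavy chain gene Slc3a2, which LAT1 needs to reach the cell surface, was detected on all 18 arrays. Its single probe read 6.19, 5.54 and 5.88 in tumour Treg and 4.93, 5.20 and 5.45 in spleen Treg. Every tumour Treg array thus lay above every spleen Treg array. The difference was 0.67 ± 0.25 (SE, n = 3 in each group), 1.10- to 2.30-fold by its 95% interval, and it did not pass (limma, adjusted p = 0.261). By BeadChip it was 1.25, 0.34 and 0.43, and with median scaling it was 1.00 (adjusted p = 0.0749).

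Slc3a2 read 5.21, 5.86 and 5.45 in tumour Tconv and 4.87, 5.07 and 5.16 in spleen Tconv, again without overlap, with a difference of 0.47 ± 0.25 (95% interval -0.06 to 1.00). In CD8 cells the values were 5.03, 5.87 and 5.77 in tumour and 5.83, 5.87 and 5.34 in spleen. These overlapped, with a difference of -0.12 ± 0.25 (interval -0.65 to 0.41), which was 0.06 with median scaling. The tumour effect differed between Treg and CD8 cells by 0.79 ± 0.35, which did not pass (limma, adjusted p = 0.58). By mean, the order of the groups was tumour Treg (5.87), spleen CD8 (5.68), tumour CD8 (5.56), tumour Tconv (5.51), spleen Treg (5.20) and spleen Tconv (5.04). Each group differed from the next in this order by less than the larger of their SDs, which ran from 0.15 to 0.46.

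The glutamine transporter gene Slc1a5 had 5 probes, all close to the floor. The probe with the highest mean was detected on all 9 tumour arrays and on 4 of 9 spleen arrays. In tumour, Treg read 4.82, 4.57 and 4.47, Tconv 4.57, 4.83 and 4.67, and CD8 cells 4.83, 5.16 and 4.53. In spleen, Treg read 4.16, 4.96 and 4.40, Tconv 4.19, 4.35 and 4.16, and CD8 cells 4.21, 4.19 and 4.58. Tumour Tconv lay above spleen Tconv on every array, and the other tumour and spleen pairs overlapped. Neither the difference in Tconv, 0.46 ± 0.20 (limma, adjusted p = 0.525), nor that in CD8 cells, 0.51 ± 0.20 (adjusted p = 0.357), passed.

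Over its 5 probes, Slc1a5 was detected in 33 of 45 readings in tumour (73.3%) and in 17 of 45 in spleen (37.8%). Over all tested probes these shares were 69.4% and 67.1%. The 5 probes read the same 18 arrays and are not independent, and this split carries no test. By group, the detections were 12 of 15 in tumour Treg, 10 in tumour Tconv, 11 in tumour CD8, 11 in spleen Treg, 4 in spleen Tconv and 2 in spleen CD8. Spleen Treg thus had a count within the range of the tumour groups, and the low counts were those of spleen Tconv and spleen CD8 cells. Over all probes of the array, 43.9, 42.4 and 45.2% were detected in spleen Treg and 42.3, 39.6 and 42.2% in spleen Tconv. In spleen CD8 cells the shares were 39.1, 38.0 and 40.3%, and on tumour arrays they ran from 41.6 to 44.7%. The part of these shares in the Slc1a5 counts was not tested. Probe 2 was detected on 3 of 3 spleen Treg arrays and on 0 of 3 arrays of spleen Tconv and of spleen CD8 cells. As a lower bound, which sets each undetected value to at least the lowest detected signal of its array, it was at least 1.31-fold and at least 1.28-fold higher in spleen Treg, and neither difference passed (limma, adjusted p = 0.538 and 0.368).

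**Figure D2:**
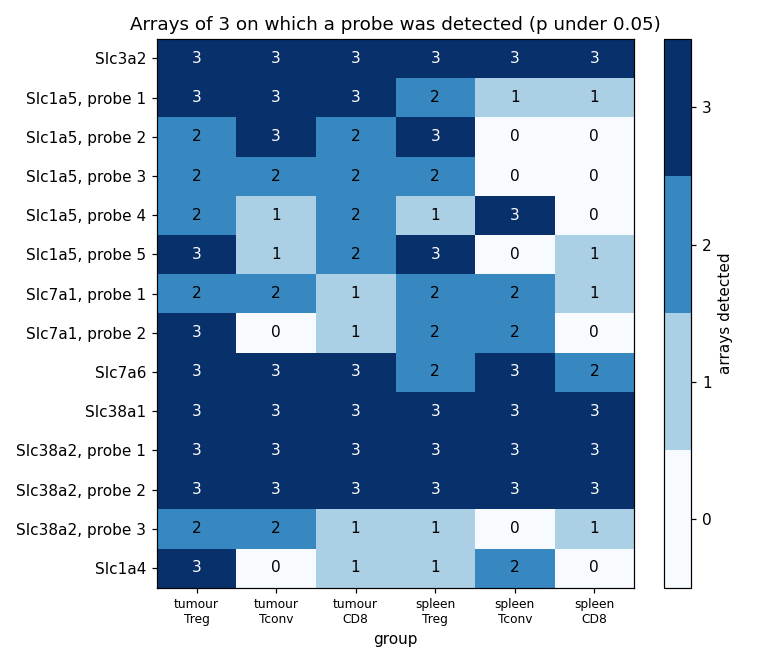
Number of arrays, of 3 in each group, on which each member probe had a detection p-value under 0.05. Slc3a2, Slc38a1 and Slc38a2 probes 1 and 2 were detected on all arrays, whereas Slc1a5 probe 2 and probe 3 were detected on 0 of 3 arrays of spleen Tconv and of spleen CD8 cells.

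The dimmest of the 5 Slc1a5 probes gave the smallest adjusted p among all member tests. It read 4.70, 4.57 and 4.56 in tumour Treg and 4.30, 4.21 and 4.25 in tumour Tconv, with no overlap. The difference of 0.36 ± 0.11 did not pass (limma, adjusted p = 0.114), and did when arrays were scaled by their medians and not by quantiles (0.47, adjusted p = 0.0232) and without the detection filter (adjusted p = 0.0351). Over all alternatives its adjusted p ran from 0.0232 to 0.506. The brighter probes did not repeat it: probe 1 gave -0.07 for the same comparison, probe 2 -0.12, probe 3 -0.02 and probe 4 0.05. Across the 18 arrays the 5 probes were correlated with each other by 0.04 to 0.68, with 0.68 for probes 1 and 3.

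Slc38a2, a glutamine and alanine carrier known to respond to amino acid supply, had 3 probes that did not behave alike. Its brightest probe read 6.99, 7.21 and 7.12 in tumour Treg against 7.74, 7.44 and 7.72 in spleen Treg. In Tconv the values were 7.73, 8.38 and 7.55 in tumour and 7.60, 7.63 and 8.35 in spleen, and in CD8 cells 7.65, 7.50 and 7.70 against 6.86, 7.44 and 7.60. Tumour Treg had the lowest mean of the 6 groups, 7.10, and did not overlap spleen Treg, tumour Tconv or tumour CD8 cells. The difference from spleen Treg was -0.53 ± 0.24 (95% interval -1.04 to -0.01; limma, adjusted p = 0.437) and that from tumour Tconv -0.78 ± 0.24 (interval -1.30 to -0.27; adjusted p = 0.135).

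Both differences depended on the scaling between arrays. With median scaling the first was -0.02 and the second -0.25, and the mean signal before any correction was 252 units in tumour Treg, 254 in spleen Treg and 284 in tumour Tconv. The tumour Treg arrays had a mean signal over all probes of 147 units, against 127 to 131 in the other groups. A change from quantile normalization to median scaling moved the differences of all probes by a median of 0.13 for tumour against spleen Treg. For Treg against either other population in the tumour the median move was 0.15. The second Slc38a2 probe, detected on all 18 arrays too, gave 0.14 ± 0.25 for tumour against spleen Treg and 0.61 ± 0.25 for tumour against spleen CD8 cells (limma, adjusted p = 0.399). In CD8 cells it read 6.02, 6.64 and 6.66 in tumour and 5.34, 5.80 and 6.37 in spleen, so that the groups overlapped. The third probe was detected on 7 arrays, and its group means spanned 0.20.

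Slc38a1, a second sodium-coupled glutamine carrier, was detected on all arrays. In some groups, such as tumour Treg and spleen CD8 cells, its arrays lay further apart than the group means did. Its group means spanned 0.61, from 5.48 in tumour Treg to 6.08 in tumour CD8 cells, with a within-group SD of 0.52. Tumour Treg read 4.87, 6.06 and 5.50 and spleen Treg 5.93, 5.58 and 5.99. These overlapped, and the interval of the difference, -1.19 to 0.48, runs from 0.44-fold to 1.39-fold. Tumour CD8 cells read 6.85, 5.65 and 5.75 and spleen CD8 cells 6.50, 5.02 and 6.19, with a difference of 0.18 ± 0.39.

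Slc7a1, the main arginine carrier of most cells, had 2 probes that were detected on 10 and 8 of 18 arrays. The group means of the brighter probe spanned 0.27 and those of the dimmer probe 0.21. The dimmer probe was detected on 3 of 3 tumour Treg arrays and on 0 of 3 arrays of tumour Tconv and of spleen CD8 cells. It read 4.55, 4.30 and 4.40 in tumour Treg and 4.23, 4.22 and 4.21 in tumour Tconv, without overlap. By the bound on means it was at least 1.13-fold higher in tumour Treg, a difference that did not pass (limma, adjusted p = 0.549).

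Slc7a6 encodes y+LAT2, which pairs with the Slc3a2 protein and exports arginine in exchange for neutral amino acids. It was detected on 16 arrays and read 4.92, 5.79 and 4.67 in tumour CD8 cells against 5.39, 4.09 and 4.44 in spleen CD8 cells. These overlapped, with a difference of 0.49 ± 0.32 (interval -0.20 to 1.18). The difference was -0.19 ± 0.32 in Tconv and 0.06 ± 0.32 in Treg. In the spleen, Treg read 4.74, 4.22 and 4.37 and Tconv 4.89, 4.77 and 5.17, without overlap but by a difference of -0.50 ± 0.32 that did not pass (limma, adjusted p = 0.826).

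Slc1a4 (ASCT1), which carries alanine, serine and cysteine, was detected on all 3 tumour Treg arrays and on 4 of the 15 others. It read 4.69, 4.74 and 4.63 in tumour Treg and 4.09, 4.10 and 4.08 in tumour Tconv, where it was detected on 0 of 3 arrays. Tumour CD8 cells read 4.25, 4.11 and 5.88, and the last of these arrays lay far above its group. In the spleen, Treg read 4.20, 4.10 and 4.30, Tconv 4.17, 4.44 and 4.79, and CD8 cells 4.20, 4.37 and 4.24. Tumour Treg overlapped neither tumour Tconv nor spleen Treg.

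For tumour Treg against tumour Tconv, Slc1a4 was at least 1.37-fold higher by the bound on means, which leaves out the spread between arrays. The difference of 0.59 ± 0.32 did not pass (limma, adjusted p = 0.548). The SE is shared by all groups, and without the third tumour CD8 array, which belongs to neither group compared, the adjusted p was 0.0389, an alternative chosen after seeing the data. With the 6 compared arrays alone it was 0.069, and over all alternatives it ran from 0.0389 to 0.838. For tumour against spleen Treg the difference was 0.48 ± 0.32 (interval -0.21 to 1.18; adjusted p = 0.697).

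RefSeq's promoter table for GRCm38.p6 holds 7 windows for 5 of the 8 members, each from 250 bases before to 50 bases after a start, and none was matched for Slc7a5, Slc1a5 and Slc38a1. The E-box CACGTG, which Myc binds, was in 0 of the 7 windows, against 7.15% of 32851 windows. The core of the C/EBP-ATF element through which Atf4 acts, TGATGNAA on either strand, was in 1 window, that of Slc1a4, against 3.97% of all windows. The Slc1a4 window is shown because this core is in it. It lies at chr11:20332664-20332963 on the minus strand, and the capitals mark the match, which is read on the opposite strand and begins at position -4 from the start.
Slc1a4: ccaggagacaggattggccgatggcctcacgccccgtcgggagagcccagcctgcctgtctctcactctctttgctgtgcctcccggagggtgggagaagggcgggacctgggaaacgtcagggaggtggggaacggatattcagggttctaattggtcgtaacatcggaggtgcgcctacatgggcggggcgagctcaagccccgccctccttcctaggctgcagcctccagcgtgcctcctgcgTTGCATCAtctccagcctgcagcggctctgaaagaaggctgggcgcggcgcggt
A match of letters is a description of the window, not a site shown to be bound in these cells. Sequence outside the windows was not searched. Slc1a4 itself did not pass in any main comparison, and a part of Atf4 in its values was not tested.

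**Figure D3:**
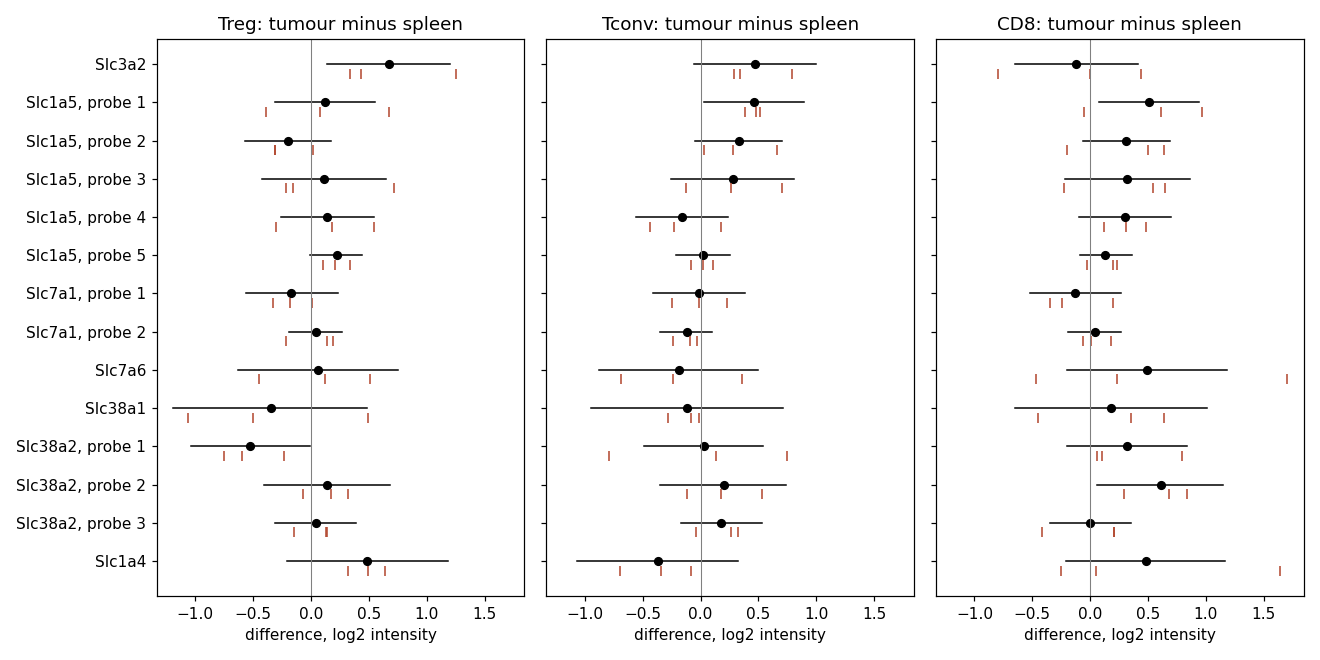
Difference between the tumour and the spleen mean of each member probe on the log2 scale, for Treg, Tconv and CD8 cells, with bars for the 95% interval from limma and red ticks for the difference on each of the 3 BeadChips. The intervals overlap 0 for all but 5 of the 42 differences, and none of the 42 passed adjustment over all probes.

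The members did not move together across the 18 arrays. Pairs of probes of different genes were correlated by -0.60 to 0.52, with a median of 0.03 over 77 pairs, and pairs of probes of the same gene by -0.11 to 0.68, with a median of 0.23 over 14 pairs. Slc3a2 and Slc38a1 had the lowest value, -0.60. These values describe arrays that share groups and BeadChips, and for dim probes they rest on signals near the floor. Among probes detected on at least 9 arrays, the genes whose pattern over the 18 arrays was most like that of a member were Rnf111 for Slc3a2 (r = 0.82), Dnajc14 for Slc1a5 (0.88), Sertad2 for Slc7a1 (0.79), Tbc1d9 for Slc7a6 (0.81), Ddrgk1 for Slc38a1 (0.78), Fam126b for Slc38a2 (0.81) and Mtmr10 for Slc1a4 (0.81). None of these is another member. The next in order were Rnf186 and Sla2 for Slc3a2, Srgap2 and Fam204a for Slc1a5, Parg and Dido1 for Slc7a1, Mcfd2 and Carmil3 for Slc7a6, Extl3 and Tmem127 for Slc38a1, Tcf20 and Mycbp for Slc38a2, and Slc26a11 and A630036P20Rik for Slc1a4, at 0.76 to 0.81. With 15528 or more candidates for each member, high values are picked from many.

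Among the other transporters of amino acids, 1 gene was called. Of 46 listed genes of the plasma membrane and the lysosome, 33 were tested, each by its brightest probe, and 1 rose in tumour against spleen Treg, where 1.69% of all genes rose and 2.38% were called in either direction. Slc15a3, a lysosomal carrier of histidine and small peptides that is also known from macrophages, read 7.64, 6.79 and 6.75 in tumour Treg and 4.78, 4.30 and 4.48 in spleen Treg. The groups lay far apart, by 2.54 ± 0.32 (limma, adjusted p = 0.00042). Within the tumour, Treg lay above Tconv by 2.01 ± 0.32 (limma, adjusted p = 0.0026) and above CD8 cells by 2.50 ± 0.32 (adjusted p = 0.000283), again 1 of 33 genes, against 1.82% and 2.47% of all genes. In tumour Tconv it read 5.19, 5.77 and 4.22 against 4.61, 4.14 and 4.10 in spleen, a difference of 0.78 that did not pass, and 0 of the 33 genes were called in Tconv or in CD8 cells, where 1.10% and 1.04% of all genes were. Without background correction the difference from spleen Treg was 1.16 and still passed. The summed macrophage markers ran from 1150 to 2330 units in tumour Treg, from 949 to 2740 in tumour Tconv and from 1830 to 2780 in tumour CD8 cells. Of the 18 macrophage markers tested 2 rose in tumour against spleen Treg, 3 in Tconv and 4 in CD8 cells, against 1.69, 0.919 and 0.802% of all genes. Between tumour Treg and the other tumour populations 0 of these markers were called. The 6 neutrophil markers tested of 10 summed to 177 to 639 units in tumour Treg, 24.1 to 245 in tumour Tconv, 20.5 to 234 in tumour CD8 cells and 14.8 to 129 in spleen Treg. Of these, Mmp9 rose in tumour against spleen Treg, by 2.82 ± 0.32, and the other 5 did not pass, with 0.26 for S100a8 and 1.82 ± 1.11 for S100a9. Among 6 dendritic cell markers tested of 8, which summed to 35.8 to 71.1 units in tumour Treg, 45.8 to 50.3 in tumour Tconv and 52.7 to 104 in tumour CD8 cells, Zbtb46 was called. It was at least 1.91-fold higher in tumour than in spleen Treg, and at least 1.88-fold and 1.78-fold higher than in tumour Tconv and tumour CD8 cells. The part of macrophages, neutrophils and dendritic cells in the Slc15a3 result was not tested.

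Of 37 genes of amino acid sensing upstream of mTORC1, 34 were tested and 0 were called for tumour against spleen in Treg, Tconv or CD8 cells, where 2.38, 1.10 and 1.04% of all genes were. For Treg, Tconv and CD8 cells the list medians were 0.09, -0.13 and -0.10, against 0.00, -0.01 and -0.01 over all genes. Between populations 3 genes were called, which are named here after their values were seen. In the tumour, Lamtor4, a subunit of the lysosomal anchor of mTORC1, was higher in Treg than in Tconv by 0.99 ± 0.22 (1 of 34, against 1.82% of all genes). Castor1, an arginine sensor, was higher in Treg than in CD8 cells by 1.72 ± 0.35 (1 of 34, against 2.47%). Rragd, a small GTPase that binds mTORC1, was by the bound on means at least 2.07-fold higher in spleen Treg than in spleen Tconv. It was higher in spleen Treg than in spleen CD8 cells by 0.91 ± 0.20. Each time this was again 1 of 34, against 1.04% and 1.58% of all genes. Of 28 alternatives, the call of Lamtor4 was lost in 9, that of Castor1 in 6, and those of Rragd in 5 against Tconv and in 9 against CD8 cells.

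A few genes of the amino acid response rose in tumour Treg. Of 24 genes of the Gcn2 and Atf4 pathway, 19 were tested, 3 rose in tumour against spleen Treg, against 1.69% of all genes, 0 fell, and the list median was 0.39, against 0.00 over all genes. The list was drawn up with earlier results of these data known, so its counts are a description and not a test of the pathway. Cebpb, a transcription factor that Atf4 induces and that myeloid cells express too, read 5.53, 6.45 and 6.13 in tumour Treg and 4.32, 4.09 and 4.27 in spleen Treg, a rise of 1.81 ± 0.22 (limma, adjusted p = 0.000308); it was detected on 1 of 3 spleen Treg arrays. Asns, the asparagine synthetase, read 6.41, 5.46 and 5.59 against 4.51, 4.78 and 4.30, a rise of 1.29 ± 0.29 (adjusted p = 0.0299). Eif4ebp1, a translation repressor that mTORC1 inactivates, read 6.27, 5.37 and 5.37 against 4.57, 4.67 and 4.63, a rise of 1.05 ± 0.25 (adjusted p = 0.0414). In all 3 cases the tumour Treg arrays lay above all spleen Treg arrays.

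The calls of Asns and Eif4ebp1 were not firm. The other 2 Asns probes lay near the floor and gave 0.24 each, and without the first tumour Treg array Asns had an adjusted p of 0.137 (limma). For Eif4ebp1 the adjusted p was 0.0702 when replicate entered as a block, and 0.166 without the first tumour Treg array. Without background correction the differences were smaller, 0.67 for Cebpb, 0.47 for Asns and 0.38 for Eif4ebp1. Under 28 alternatives, Cebpb kept its call in 26, Asns in 19 and Eif4ebp1 in 10. The 28 include fits without single arrays of groups that this comparison does not use. Atf4 itself gave 0.42 ± 0.31 and did not pass, nor did Trib3, a target of Atf4, at -0.96 ± 0.31 (adjusted p = 0.168). In Tconv and CD8 cells 0 of the 19 genes were called, against 1.10% and 1.04% of all genes, and the tests of a difference between populations in the tumour effect called 0 of the 19 as well, against 0.130, 0.206 and 0.0274% of all genes for Treg and Tconv, Treg and CD8, and CD8 and Tconv.

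Within the tumour, Cebpb was higher in Treg than in Tconv by 1.66 ± 0.22 and than in CD8 cells by 1.46 ± 0.22, and Asns higher than in Tconv by 1.40 ± 0.29. Ddit4, an inhibitor of mTORC1 that stress induces, read 10.79, 10.91 and 10.88 in tumour Treg, 9.35, 9.79 and 9.77 in tumour Tconv and 9.15, 9.58 and 9.19 in tumour CD8 cells. It was higher in Treg by 1.23 ± 0.21 and 1.56 ± 0.21 (limma, adjusted p = 0.00482 and 0.000479), and is named after its values were seen. For Treg, Tconv and CD8 cells of the spleen its means were 10.26, 10.36 and 9.99. Its difference between tumour and spleen was 0.60 ± 0.21 in Treg, -0.72 ± 0.21 in Tconv and -0.69 ± 0.21 for CD8 cells, none past the test. In all, 4 of the 19 genes were higher in tumour Treg than in Tconv, where 1.82% of all genes were, and 3 of 19 higher than in CD8 cells, where 2.47% were, with Eif4ebp1 the remaining gene of both counts. Over 28 alternatives these counts ran from 0 to 5 and from 0 to 4, and the call of Eif4ebp1 was lost in 21 and 16. Macrophage and melanoma markers in tumour Treg, at 1150 to 2330 and 699 to 1050 units, overlapped those in tumour Tconv, at 949 to 2740 and 660 to 1330. In tumour CD8 cells they were at 1830 to 2780 and 524 to 736, and the melanoma marker Tyrp1 was higher in tumour Treg than there by 1.17 ± 0.29 (adjusted p = 0.0388). Their part in these results was not tested. For tumour against spleen, 5 of the 10 melanoma markers tested rose in Treg and 1 in each of the other populations. For Treg, Tconv and CD8 cells, 1.69, 0.919 and 0.802% of all genes rose. The 1 marker in Tconv and in CD8 cells was Gpnmb, at 4.59 ± 0.31 and 4.46 ± 0.31, which was also among the 5 in Treg, at 3.37 ± 0.31.

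**Figure D4:**
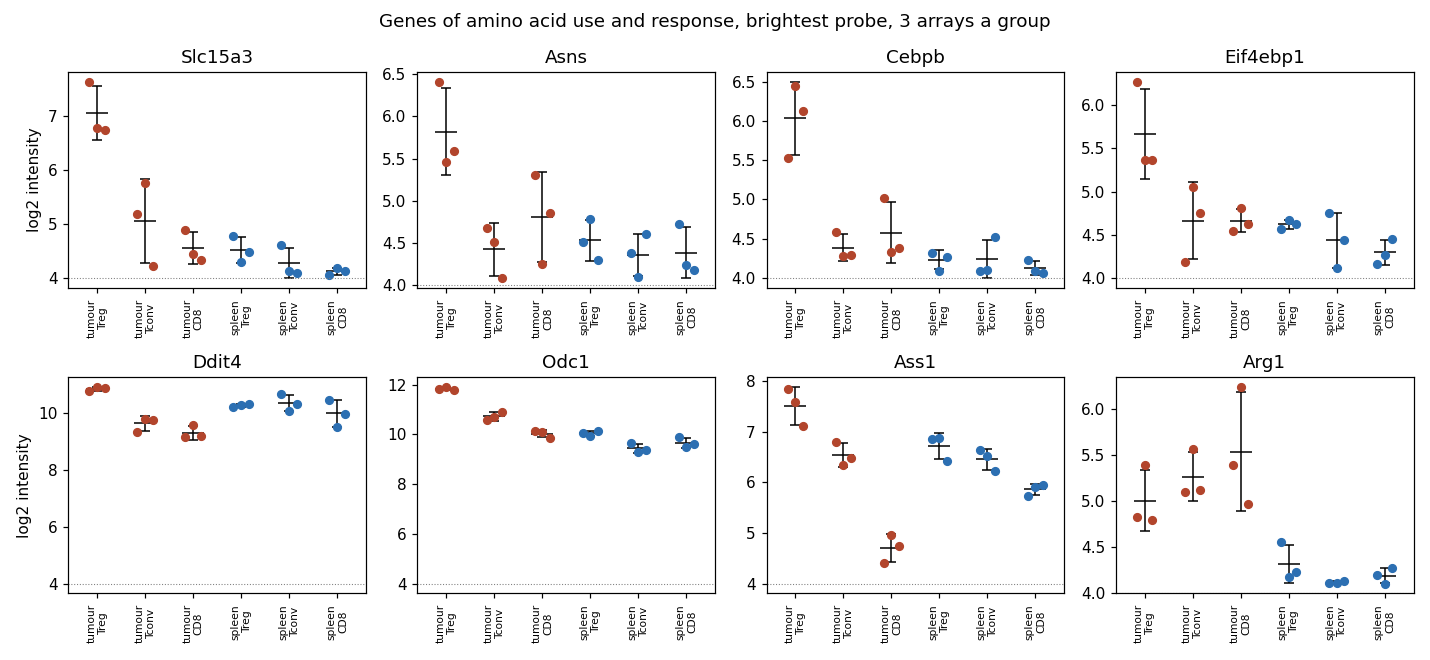
Log2 intensity of 8 genes of the pathway lists by group, with 1 point for each array whether detected or not, a bar at the mean, error bars of 1 SD and a dotted line at the floor of 4. Odc1 is at 11.80 to 11.91 in tumour Treg and at 9.93 to 10.12 in spleen Treg, and Slc15a3, Cebpb, Asns and Eif4ebp1 have their highest mean in tumour Treg.

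Among 24 genes of glutamine, arginine, branched-chain and methionine use, 19 were tested, and Odc1, Ass1 and Arg1 were called for tumour against spleen. This list too was drawn up with earlier results of these data known, so its counts are a description. Odc1, the ornithine decarboxylase of polyamine synthesis, read 11.82, 11.91 and 11.80 in tumour Treg against 10.07, 9.93 and 10.12 in spleen Treg, a rise of 1.81 ± 0.14 (limma, adjusted p = 4.78e-06). In Tconv it read 10.57, 10.71 and 10.91 against 9.65, 9.29 and 9.38, a rise of 1.29 ± 0.14 (adjusted p = 0.000137). In CD8 cells it read 10.13, 10.09 and 9.86 against 9.88, 9.49 and 9.61, a difference of 0.37 ± 0.14 that did not pass (adjusted p = 0.329). Odc1 thus lay highest in tumour Treg, with no overlap with any other group, and 1 of the 19 genes rose in Treg (1.69% of all genes), 2 in Tconv (0.919%) and 1 in CD8 cells (0.802%), where 1 fell (0.240%).

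Ass1, the argininosuccinate synthase that rebuilds arginine from citrulline, read 4.41, 4.96 and 4.75 in tumour CD8 cells against 5.73, 5.90 and 5.94 in spleen CD8 cells. It fell there by 1.15 on the log2 scale (SE 0.21; limma, adjusted p = 0.0134). In Treg it read 7.83, 7.59 and 7.10 in tumour against 6.85, 6.88 and 6.42 in spleen, without overlap, a difference of 0.79 ± 0.21 that did not pass (adjusted p = 0.0668), and in Tconv the difference was 0.09 ± 0.21. In the tumour Ass1 was higher in Treg than in CD8 cells by 2.80 ± 0.21. With Bcat1, a branched-chain aminotransferase that was higher in tumour Treg than in tumour Tconv by 1.16 and is named after its values were seen, 3 of the 19 genes were higher in Treg than in Tconv (1.82% of all genes), 2 higher in Treg than in CD8 cells (2.47%), and 2, Odc1 and Ass1, lower in CD8 than in Tconv (0.199%). Of 28 alternatives, the call of Bcat1 was lost in 9, and for CD8 against Tconv that of Odc1 in 20 and that of Ass1 in 2. The signed difference between tumour and spleen was higher in Treg than in CD8 cells for Odc1, by 1.44 ± 0.20 (limma, adjusted p = 0.00617). For Ass1 it was higher by 1.94 ± 0.29 (adjusted p = 0.0129), and these were 2 of 19 genes against 0.123% of all genes. The 2 Ass1 differences had opposite signs: the rise of 0.79 in Treg did not pass, and the fall of 1.15 in CD8 cells did. Without background correction the fall in CD8 cells had an adjusted p of 0.147.

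Arg1, the arginase that is also on the macrophage list, was higher in tumour than in spleen, both in Tconv (limma, adjusted p = 0.0498) and in CD8 cells (adjusted p = 0.0214). By the bound on means, which leaves out the spread between arrays, it was at least 2.05-fold higher in Tconv and at least 2.42-fold higher in CD8 cells. It read 5.10, 5.57 and 5.12 in tumour Tconv and 5.39, 6.24 and 4.97 in tumour CD8 cells, and was detected on 0 of 3 arrays of both spleen groups. Its dimmer probe gave 0.31 and 0.45, neither past the test, and of 28 alternatives 5 kept the call in Tconv and 20 that in CD8 cells. Of the 18 macrophage markers tested, 3 rose in Tconv and 4 in CD8 cells, Arg1 among them, against 0.919% and 0.802% of all genes. Fcer1g rose by 1.45 ± 0.28 in Tconv and by 1.90 ± 0.28 in CD8 cells. By the bound on means Clec10a was at least 24.9-fold higher in tumour Tconv, and it rose by 4.51 ± 0.33 in CD8 cells. Cd68 was called in CD8 cells alone, by 2.21 ± 0.45, and the other 15 markers in Tconv and 14 in CD8 cells did not pass. The part of macrophages in the Arg1 result was not tested.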

How the data were processed

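RNA of 18 sorted T cell samples was amplified and hybridized to Illumina bead arrays, per the labels' protocols. The deposited non-normalized table holds an average bead intensity and a detection p-value for each of 46237 probes, per the file headers. The deposited value table, linear intensities whose normalization the sources used here leave unnamed, ranked the probes alike (rank correlation at least 0.999, column medians 83.5 to 85.9) and served as an alternative. They name no scanner software either.

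Intensities were background-corrected with limma's neqc (limma 3.58.1, R 4.3.3) from the detection p-values, with an offset of 16, quantile-normalized and taken to log2. Probes with a detection p under 0.05 on at least 3 of 18 arrays were tested, 27474 in all. Of the 46237 probes, 35784 had 1 gene name and 10453 none, by the platform annotation; 28620 names were updated through Entrez IDs and 2637 through accessions. One limma fit over the 6 groups, with 12 residual degrees of freedom, gave every comparison, with Benjamini-Hochberg adjustment over all tested probes of each. The share of all genes is that of the 14581 genes whose brightest probe was called by this same adjustment. The adjusted p of a listed gene is that over all tested probes. The code was tested on simulated data.

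All probes of the members were named, with the genes called in the pathway lists, and Atf4 and Trib3 as genes of the pathway that did not pass. Members and lists were chosen with earlier results of these data known. Same-numbered arrays shared a BeadChip, but only 5 of 45 pairs had residuals correlated above 0.1 (mean 0.0423), so the numbers were not taken to pair the samples. Alternatives were median scaling, no background correction, the deposited table, no detection filter, 1 probe per gene, the compared groups alone, the replicate block, and each array or replicate left out. The number of arrays limits the precision.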

Additional observations from a re-analysis of the deposited data

Results flagged for a closer look

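For 2 of the pathway genes the tumour effect differed between populations by a test of the difference itself. Odc1 rose with the tumour more in Treg than in CD8 cells, by 1.44 ± 0.20 on the log2 scale (limma, adjusted p = 0.00617). The difference did not pass with median scaling (1.60, adjusted p = 0.0665) or without replicate 1, 2 or 3 of all groups (adjusted p = 0.101, 0.218 and 0.25). Ass1 differed by 1.94 ± 0.29 (adjusted p = 0.0129), with 0.79 in Treg and -1.15 in CD8 cells. It did not pass with the compared groups alone (adjusted p = 0.0543) or without replicate 1, 2 or 3 of all groups (adjusted p = 0.17, 0.244 and 0.193).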

How the results depend on the processing

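Of 4620 values of members under the alternatives, 4617 stayed on the same side of the threshold as the main value, and the other 3 passed it: Slc1a5 probe 5 for Treg against Tconv in the tumour with median scaling (0.47) and with no detection filter (0.36), and Slc1a4 for the same groups without tumour CD8 replicate 3 (0.59). The counts of all called probes moved more. With median scaling, tumour against spleen gave 939 calls in Treg (865 higher, 74 lower) in place of 581 (388, 193), 156 in Tconv (148, 8) in place of 250 (209, 41) and 154 in CD8 cells (136, 18) in place of 237 (177, 60). Within the tumour it gave 1091 for Treg against Tconv (1001, 90) in place of 618 (416, 202), 58 for CD8 against Tconv in place of 104, and 1328 for Treg against CD8 (1168, 160) in place of 928 (577, 351). Within the spleen it gave 230 (196, 34) in place of 354 (248, 106), 74 in place of 177, and 348 (249, 99) in place of 594 (361, 233) for the same pairs. For the differences in tumour effect it gave 56 (46, 10) in place of 33 (15, 18) for Treg and Tconv, 81 (69, 12) in place of 48 (30, 18) for Treg and CD8, and 2 in place of 5 for CD8 and Tconv. With the compared groups alone the counts were 90 for the tumour effect in Tconv, 19 in CD8 cells, 263, 30 and 418 within the tumour in the order above, 39 for CD8 against Tconv and 304 for Treg against CD8 in the spleen, and 28 and 1 for the last 2 differences; fewer arrays enter these fits. With 1 probe per gene, fewer probes were tested, and the counts were 356 for Treg, 397 for Treg against Tconv in the tumour, 233 in the spleen, and 20 for the difference of Treg and Tconv, which had 50 without background correction and 50 in the deposited table. The cause of the other shifts was not tested.

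With arrays or replicates left out, the counts ran from 122 to 626, 60 to 282 and 70 to 275 for tumour against spleen in Treg, Tconv and CD8 cells, 181 to 663, 25 to 120 and 304 to 1053 within the tumour, 79 to 373, 42 to 207 and 151 to 614 within the spleen, and 0 to 51, 0 to 66 and 0 to 10 for the differences. The replicate block gave 601, 285 and 284 calls for tumour against spleen and changed no call of a member; of the pathway genes named, it ended that of Eif4ebp1 (adjusted p = 0.0702 for Treg in tumour against spleen). Signals near the background limit Slc1a5, Slc7a1 and Slc1a4.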
